A study of Mus musculus with 12 samples.

Results

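The genes described here surround Neil2 on mouse chromosome 14. NEIL2 is a DNA glycosylase, an enzyme that cuts oxidised bases out of DNA in base excision repair, and its paralogue NEIL1 acts on a similar range of lesions. Members were chosen by position alone: genes of the count table whose start lies within 20 Mb of the start of Neil2 (chr14:63182439-63194154, genome build GRCm38), which gives 364 of the 18558 genes in the table. Of the 364 members, 230 start below Neil2 and 134 above it, and 356 are protein-coding. Neil2 itself and 9 other genes of the window are not described here. After a filter on low counts, 256 members were tested (157 below Neil2 and 99 above); 108 were not, 6 of them without a single count.

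RNA was sequenced from the pyramidal cell layer of hippocampal CA1, cut by laser from 8-µm brain sections of male mice aged 3 to 6 months and taken straight from the home cage. The groups were Neil2-/- mice (n = 3), Neil1-/-Neil2-/- mice (n = 2), Neil1-/- mice (n = 2) and wild-type (WT) mice (n = 3), all on a C57Bl6 background. The double mutants carry the label Neil1/2-/-. For 2 further libraries, of 12 in all, title and genotype label disagree, and these were kept out of every comparison. The study itself left out 2 samples as outliers, which left 2 Neil1-/- and 2 Neil1-/-Neil2-/- mice. Its text does not name these samples, so the groups used here may differ from the study's. No library was left out here as an outlier in the main fits. The 3 mutant lines were backcrossed and bred apart from the C57BL/6 N mice that served as controls, so the controls were not littermates. In a backcrossed line the chromosome next to the targeted gene is inherited together with it, and the study's methods searched the genome for stretches kept from strain 129. An effect of NEIL2 itself and an effect of whatever else the flanking chromosome carries cannot be told apart in this design.

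The libraries held 19618923 to 21970180 estimated counts each. Neil2 had no count in any of the 5 libraries labelled Neil2-/- or Neil1-/-Neil2-/-, against 10 and 5 counts in Neil1-/- and 5 counts in each of the 3 WT libraries. Neil2-/- mice thus had an at least 4.94-fold lower level than WT mice, with the Neil2-/- group set to 3 counts in sum, the limit that a count of 0 allows. Neil1 mRNA was at 7.67 and 5.97 CPM (counts scaled by library size) in Neil1-/- and 6.58 and 7.19 CPM in Neil1-/-Neil2-/- libraries. It was at 3.91, 4.05 and 4.01 CPM in Neil2-/- and 3.34, 2.95 and 4.44 CPM in WT libraries. The grouped libraries labelled as lacking NEIL1 thus lay above the others, without overlap. A gene-level count that is higher does not show the loss of Neil1, and genotype names below are those of the labels. All 10 markers of CA1 pyramidal neurons were found and edgeR called none in any genotype against WT. Of 8 markers of striatum and thalamus 3 were called in Neil1-/-Neil2-/- against WT mice, and of 7 of endothelium and pericytes 1 was called in Neil2-/- against WT mice and for NEIL2 loss. Neil1-/-Neil2-/- replicate 1 stood apart, at 43.9 on a first principal component (23.4% of the variance) on which the other 9 libraries lay between -21.1 and 10.9. Its oligodendrocyte markers averaged 1.08 log2 units above WT and its astrocyte markers 0.66, against -0.21 to 0.32 and -0.31 to 0.32 in the other mutant libraries. Markers of choroid plexus (2.22), striatum and thalamus (2.22) and blood (1.54) were higher still in it. The shift was not confined to this library, since Neil1-/-Neil2-/- replicate 2 had 1.24 for choroid plexus and 1.36 for striatum and thalamus, and WT replicate 3 had 1.26 for choroid plexus. Neil1-/- replicate 1 had 0.94 for striatum and thalamus. Markers of CA3 and dentate gyrus averaged 1.12 in Neil1-/- replicate 1 and 0.61 in Neil1-/-Neil2-/- replicate 1, against -0.36 to 0.47 in the other libraries. All 10 oligodendrocyte markers were found, and their summed level was 521 to 1300 CPM in the 5 libraries without NEIL2 and 525 to 710 CPM in the 5 with it. In bulk RNA, fewer cells of a type and less RNA per cell cannot be told apart. The part of these markers in the results below was not tested, and counts are given without Neil1-/-Neil2-/- replicate 1 where they move.

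Promoter sequences are shown for the members that changed in Neil2-/- mice and again in mice lacking both enzymes. These were Esd, Bmp1, Rgcc, Myh6 and 4930431P22Rik. The RefSeq table of promoters (GRCm38.p6, 250 bases before to 50 after a listed start) held Esd, Rgcc and Myh6. For Rgcc the listed start is where the gene model given below begins, on the minus strand. For Esd and Myh6 it lies inside the gene model. The Esd sequence still takes in the outer start of its gene model, while the Myh6 sequence does not reach that of Myh6. Capitals mark matches on either strand to 5 short motifs of promoters: TATAAA (the TATA box), CCAAT (bound by the factor NF-Y), GGGCGG (the GC box bound by Sp1), CACGTG (an E-box) or TGACGTCA (the cyclic AMP response element). Adjacent matches run together. The Esd promoter (chr14:74732047-74732346, plus strand) held 6 matches to GGGCGG, the Rgcc promoter (chr14:79301586-79301885, minus strand) held 5, and the Myh6 promoter (chr14:54966558-54966857, minus strand) held 1 match to TATAAA. Each is given 5′ to 3′ on the strand of its gene.
Esd: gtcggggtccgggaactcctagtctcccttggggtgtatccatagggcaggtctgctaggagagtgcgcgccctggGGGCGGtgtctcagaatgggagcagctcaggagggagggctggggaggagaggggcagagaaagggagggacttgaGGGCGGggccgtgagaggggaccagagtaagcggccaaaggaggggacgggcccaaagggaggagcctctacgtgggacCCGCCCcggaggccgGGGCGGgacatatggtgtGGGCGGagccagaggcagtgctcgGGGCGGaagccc
Rgcc: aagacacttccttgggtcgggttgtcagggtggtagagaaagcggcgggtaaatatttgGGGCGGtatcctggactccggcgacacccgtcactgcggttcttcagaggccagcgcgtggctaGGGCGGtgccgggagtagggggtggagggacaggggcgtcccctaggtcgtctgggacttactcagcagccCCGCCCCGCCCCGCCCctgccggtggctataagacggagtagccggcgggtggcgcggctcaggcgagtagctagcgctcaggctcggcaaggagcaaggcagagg
Myh6: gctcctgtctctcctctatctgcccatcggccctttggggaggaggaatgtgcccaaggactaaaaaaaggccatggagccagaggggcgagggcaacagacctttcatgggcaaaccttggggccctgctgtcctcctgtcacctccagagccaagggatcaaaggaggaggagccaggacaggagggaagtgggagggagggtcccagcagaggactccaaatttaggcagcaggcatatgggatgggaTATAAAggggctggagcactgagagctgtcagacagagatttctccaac
Of 32851 promoters in the RefSeq table, 35.7% held GGGCGG and 13.6% held TATAAA; among the 305 promoters of 248 members these shares were 43.6% and 10.2%. CCAAT was in 37.4% of all promoters and 36.4% of the members' promoters, CACGTG in 7.15% and 5.9%, and TGACGTCA in 1.79% and 2.3%. Esd, which fell without NEIL2, and Rgcc, which rose, thus both held GGGCGG, a match found in many promoters.

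The first question was which members differ in each knockout. A member was called at an adjusted p below 0.05 in edgeR's quasi-likelihood test, adjusted over all 13982 genes tested. In Neil2-/- against WT mice 10 of the 256 tested members were called, against 0.3% of all genes tested, and 66 had an unadjusted p below 0.05, against 9.65%. In Neil1-/-Neil2-/- against WT mice 5 members were called (0.322% of all genes) and 60 had an unadjusted p below 0.05 (11.1% of all genes). In Neil1-/- against WT mice, whose chromosome 14 carries no targeted gene, 2 members were called (0.2% of all genes) and 17 had an unadjusted p below 0.05 (8.98% of all genes). The median absolute log2 fold change of the members was 0.162 in both comparisons that involve loss of NEIL2 and 0.120 in Neil1-/- mice, against 0.105, 0.118 and 0.119 over all genes tested in Neil2-/-, Neil1-/-Neil2-/- and Neil1-/- mice. The count of 5 went to 3 (Esd, Bmp1 and Myh6) without WT replicate 1 or without Neil1-/-Neil2-/- replicate 1, and the count of 2 went to 0 without WT replicate 1 and to 1 without any other library but WT replicates 2 and 3.

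**Figure D1:**
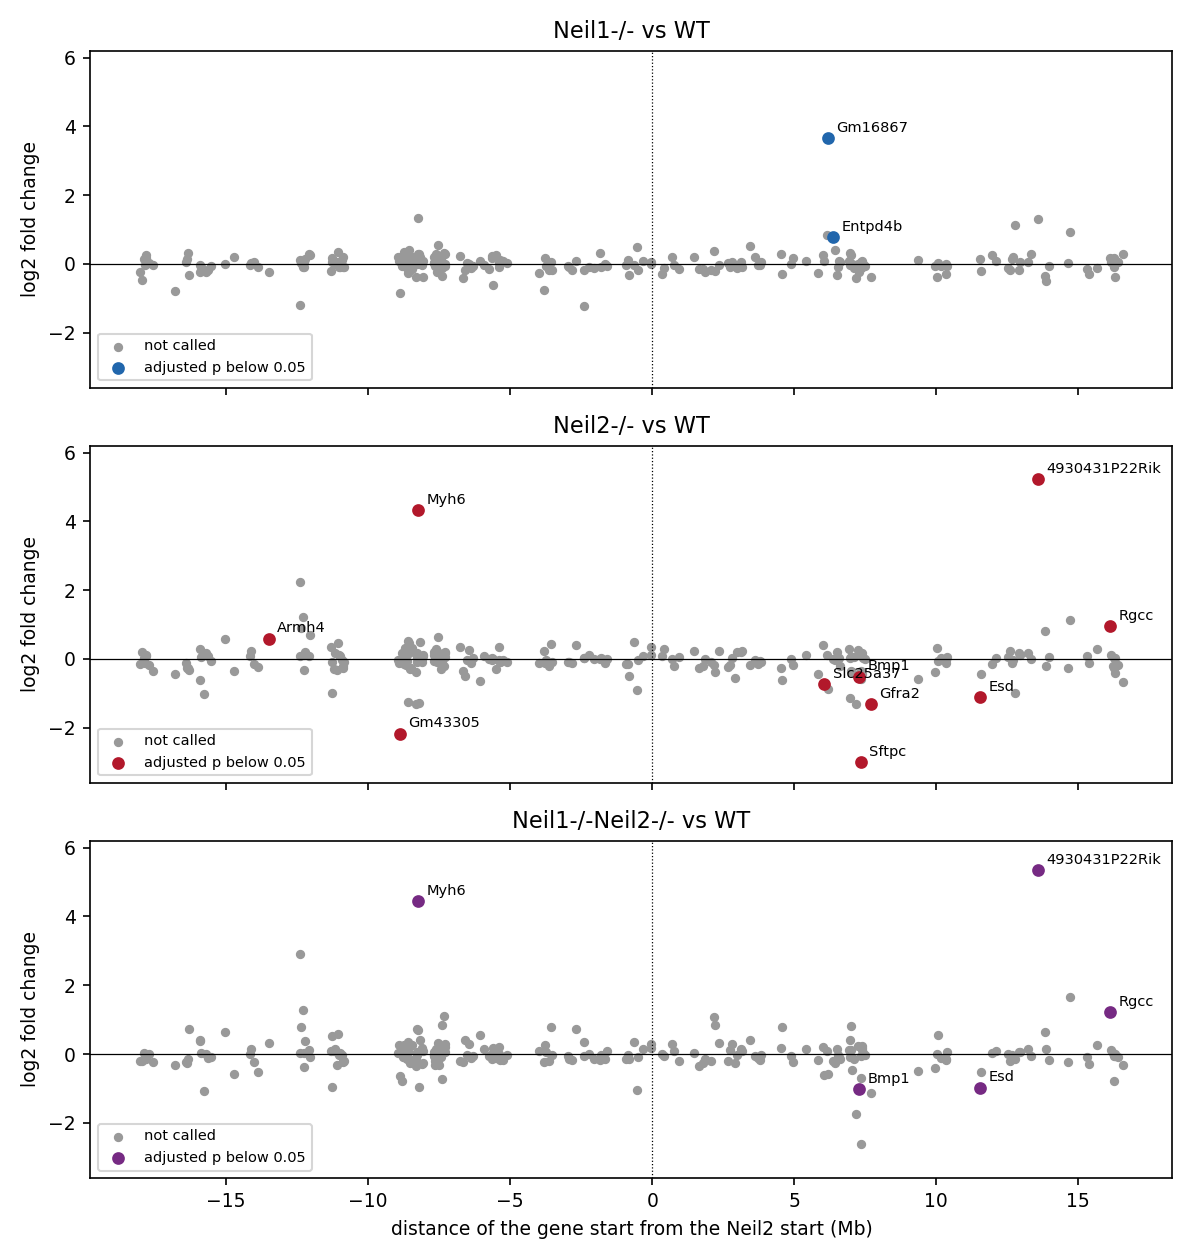
Log2 fold change against WT (vertical axis) of each of the 256 tested members by distance of its start from the start of Neil2 (horizontal axis, Mb), in Neil1-/- (top), Neil2-/- (middle) and Neil1-/-Neil2-/- mice (bottom); coloured, named points had an adjusted p below 0.05. Of the 2 called members in Neil1-/- mice neither is among the 10 called in Neil2-/- or the 5 called in Neil1-/-Neil2-/- mice.

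Mice without NEIL2 can also be compared with mice that have it where both lack NEIL1. In Neil1-/-Neil2-/- against Neil1-/- mice 6 members were called (0.458% of all genes) and 65 had an unadjusted p below 0.05 (13.0% of all genes). This comparison shares no library with that of Neil2-/- against WT mice, and 4 members were called in both: Esd, Bmp1, Rgcc and Myh6. They are 4 of the 10 called in Neil2-/- against WT and 4 of the 6 called in Neil1-/-Neil2-/- against Neil1-/- mice. The rest of the 6 were Gm16867 (-4.24 on the log2 scale, adjusted p = 0.0135) and Entpd4b (-0.97, adjusted p = 0.02). Both were high in the Neil1-/- libraries alone and were not called in Neil2-/- against WT mice. Without Neil1-/-Neil2-/- replicate 1 the count of 6 went to 1 (Esd), without Neil1-/- replicate 1 to 3, and without Neil1-/-Neil2-/- replicate 1 and Neil1-/- replicate 2 together to 0. The count of 10 in Neil2-/- against WT mice went to between 2 and 4 without any single library of those groups, and Esd and Myh6 were called in each of these fits.

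Esd encodes esterase D, which hydrolyses S-formylglutathione in the detoxification of formaldehyde. It lies 11.55 Mb above Neil2 (chr14:74732151-74750765). Its level was 28.0, 28.0 and 35.3 CPM in Neil2-/-, 33.9 and 32.5 CPM in Neil1-/-Neil2-/-, 68.5 and 75.8 CPM in Neil1-/-, and 65.0, 60.9 and 70.3 CPM in WT libraries. All 5 libraries without NEIL2 were below all 5 with it, with no overlap. The log2 fold change was -1.10 ± 0.10 (SE) in Neil2-/- against WT (adjusted p = 0.000245) and -1.12 ± 0.12 in Neil1-/-Neil2-/- against Neil1-/- mice (adjusted p = 0.00187), and 0.14 ± 0.11 in Neil1-/- against WT mice (adjusted p = 0.728).

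Bmp1 encodes a secreted metalloprotease that trims procollagen, and starts 7.29 Mb above Neil2 (chr14:70474555-70520716). It was at 42.4, 41.9 and 44.4 CPM in Neil2-/-, 26.5 and 33.6 CPM in Neil1-/-Neil2-/-, 53.2 and 50.9 CPM in Neil1-/-, and 60.8, 63.8 and 58.1 CPM in WT libraries. The 4 groups did not overlap, with Neil1-/-Neil2-/- lowest and WT highest. The fall was -0.51 ± 0.09 on the log2 scale in Neil2-/- against WT (adjusted p = 0.0397) and -0.79 ± 0.11 in Neil1-/-Neil2-/- against Neil1-/- mice (adjusted p = 0.0106). The first was lost on leaving out any WT or Neil2-/- library (adjusted p up to 0.182), the second without Neil1-/-Neil2-/- replicate 1 (adjusted p = 0.083).

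Rgcc, a regulator of the cell cycle first described as a gene that responds to complement, starts 16.11 Mb above Neil2 (chr14:79288750-79301635). It had 9.04, 9.99 and 8.80 CPM in Neil2-/-, 11.9 and 10.2 CPM in Neil1-/-Neil2-/-, 4.38 and 6.43 CPM in Neil1-/-, and 4.65, 4.93 and 4.67 CPM in WT libraries. The 5 libraries without NEIL2 were all above the 5 with it. The rise was 0.96 ± 0.16 on the log2 scale in Neil2-/- against WT (adjusted p = 0.0287) and 1.04 ± 0.19 in Neil1-/-Neil2-/- against Neil1-/- mice (adjusted p = 0.0401). Like Bmp1, it lost the first call without any single WT or Neil2-/- library (adjusted p up to 0.153), and the second without most single libraries (adjusted p up to 0.282, without Neil1-/-Neil2-/- replicate 1).

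Myh6 encodes the alpha heavy chain of cardiac myosin and lies 8.24 Mb below Neil2 (chr14:54941921-54968017), next to Myh7, which encodes the beta chain. Myh6 was at 1.30, 1.80 and 1.13 CPM in Neil2-/- and 1.18 and 1.87 CPM in Neil1-/-Neil2-/- libraries, against 0.143 and 0.201 CPM in Neil1-/- and 0.0485, 0.0483 and 0.0935 CPM in WT libraries. It was thus low throughout and nearly silent where NEIL2 was present, with no overlap. The sum was 87 estimated counts in Neil2-/- against 4 in WT mice, a ratio of 22 (95% exact interval 8.3 to 82.7, for counting error only). The log2 fold change was 4.34 ± 0.50 in Neil2-/- against WT (adjusted p = 0.00196) and 3.11 ± 0.52 in Neil1-/-Neil2-/- against Neil1-/- mice (adjusted p = 0.0295). The first call held without each single library, the second was lost without any of the 4 libraries it compares.

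Myh7 went the other way. It was at 4.24, 4.25 and 4.94 CPM in Neil2-/-, 7.07 and 4.19 CPM in Neil1-/-Neil2-/-, 7.38 and 19.1 CPM in Neil1-/-, and 13.2, 9.72 and 9.68 CPM in WT libraries. The libraries without NEIL2 did not overlap those with it, but Neil1-/-Neil2-/- replicate 1 and Neil1-/- replicate 1 were close. Both genes had estimated counts that were not whole in all 10 libraries, so some of their reads were shared with other genes. The 2 heavy chains are near-identical and Myh6 also overlaps Cmtm5; the source of the shared reads was not tested, and the split between Myh6 and Myh7 is uncertain.

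4930431P22Rik, annotated as a long non-coding RNA, lies 13.58 Mb above Neil2 (chr14:76760131-76762215). It had 0.885, 0.899 and 0.685 CPM in Neil2-/- and 0.687 and 1.08 CPM in Neil1-/-Neil2-/- libraries. In Neil1-/- mice it had 0.0953 CPM in replicate 1 and no count in replicate 2, and in WT mice 0.0485 CPM in replicate 1 and none in the others. There were thus 51 counts in Neil2-/- against 1 in WT mice, a ratio of 51.7 (95% exact interval 8.86 to 2080), and 36 in Neil1-/-Neil2-/- against 2 in Neil1-/- mice, a ratio of 18.1 (4.66 to 155). It was called against WT in Neil2-/- (adjusted p = 0.0216) and Neil1-/-Neil2-/- mice (adjusted p = 0.0158), though neither call held without any 1 of the WT libraries (adjusted p up to 0.0904 and 0.0812), and its adjusted p was 0.0698 in Neil1-/-Neil2-/- against Neil1-/- mice.

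**Figure D2:**
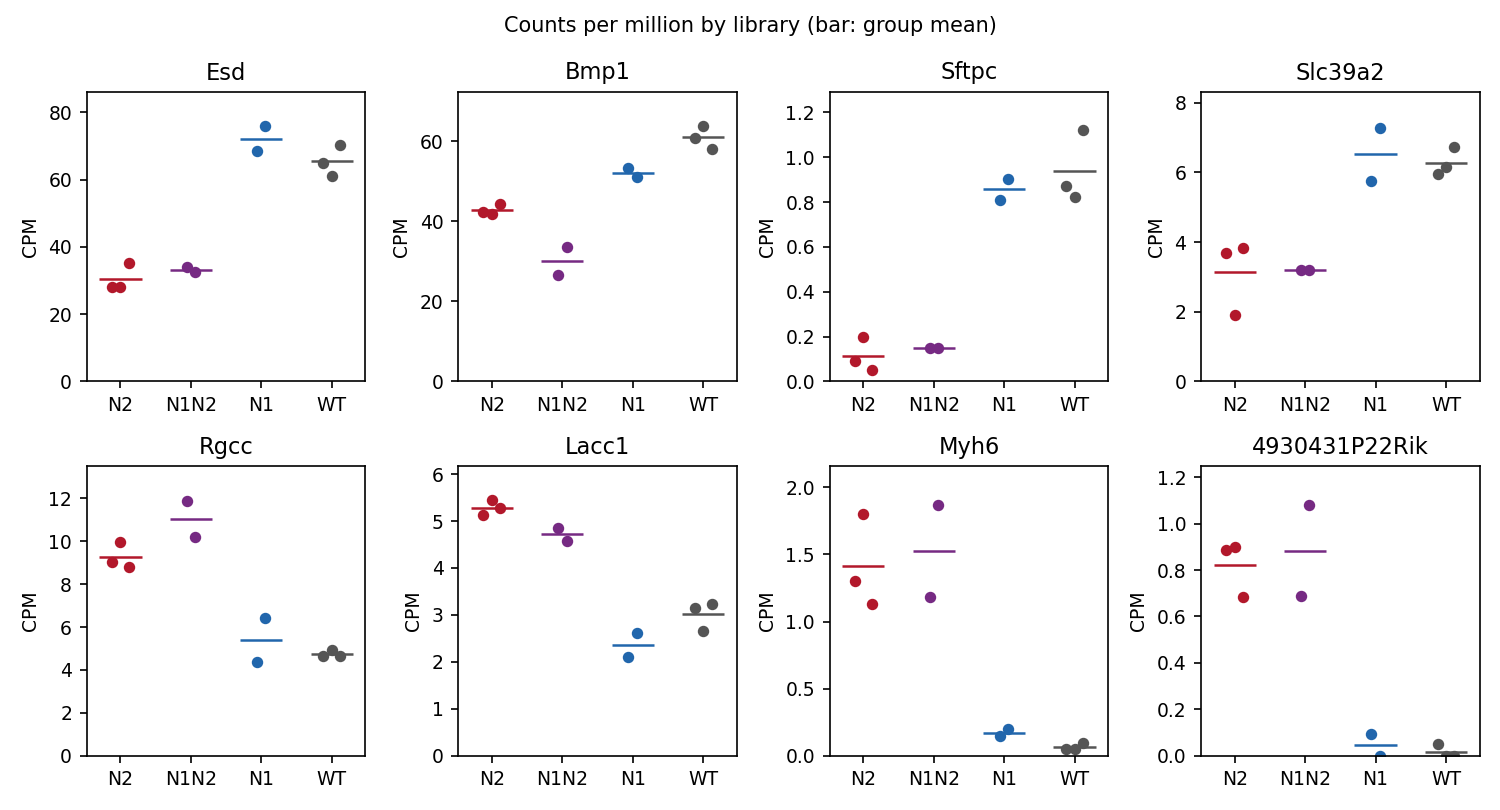
CPM (vertical axes, from 0) of 8 members in each library of Neil2-/- (N2), Neil1-/-Neil2-/- (N1N2), Neil1-/- (N1) and WT mice; a point is a library and a bar the group mean. In every panel the 5 libraries without NEIL2 lie on 1 side of the 5 with it: Esd, Bmp1, Sftpc and Slc39a2 below, Rgcc, Lacc1, Myh6 and 4930431P22Rik above.

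Loss of NEIL2 was also estimated from the 10 libraries together, as an additive effect beside loss of NEIL1. Here 33 of the 256 tested members (12.9%) were called, against 1.49% of all genes tested, and 80 members (31.2%) had an unadjusted p below 0.05, against 16.1%. Of the 33, 14 were higher without NEIL2 (0.73% of all genes were called higher) and 19 were lower (0.765% were called lower). DESeq2 called 46 of the 235 members to which it gave an adjusted p, against 4.79% of all genes. In a count that needs no model, the 5 libraries without NEIL2 did not overlap the 5 with it at 43 tested members (16.8%), against 3.68% of all genes tested; 20 were higher and 23 lower.

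The count of 33 fell to 18 without WT replicate 1, 21 without Neil2-/- replicate 1, 21 without Neil1-/-Neil2-/- replicate 1, 20 without Neil1-/-Neil2-/- replicate 2, and 17 without Neil1-/-Neil2-/- replicate 1 and Neil1-/- replicate 2 together. Of the 33 members, 16 were called in each of the fits that gave them an adjusted p: Esd, Bmp1, Rgcc, Myh6, 4930431P22Rik, Sftpc, Slc25a37, Gfra2, Lgi3, Fndc3a, Lacc1, Slc39a2, Hnrnpc, Slc7a8, Klhl33 and Armh4. The other 17, among them Myh7, Elp3, Mettl3 and Fdft1, missed the threshold in 1 or more of them. All 33 had the same sign in Neil2-/- against WT and in Neil1-/-Neil2-/- against Neil1-/- mice, and 31 had an unadjusted p below 0.05 in both. The 33 were chosen by a fit that pools these same libraries, so this agreement largely follows from the choice.

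**Figure D3:**
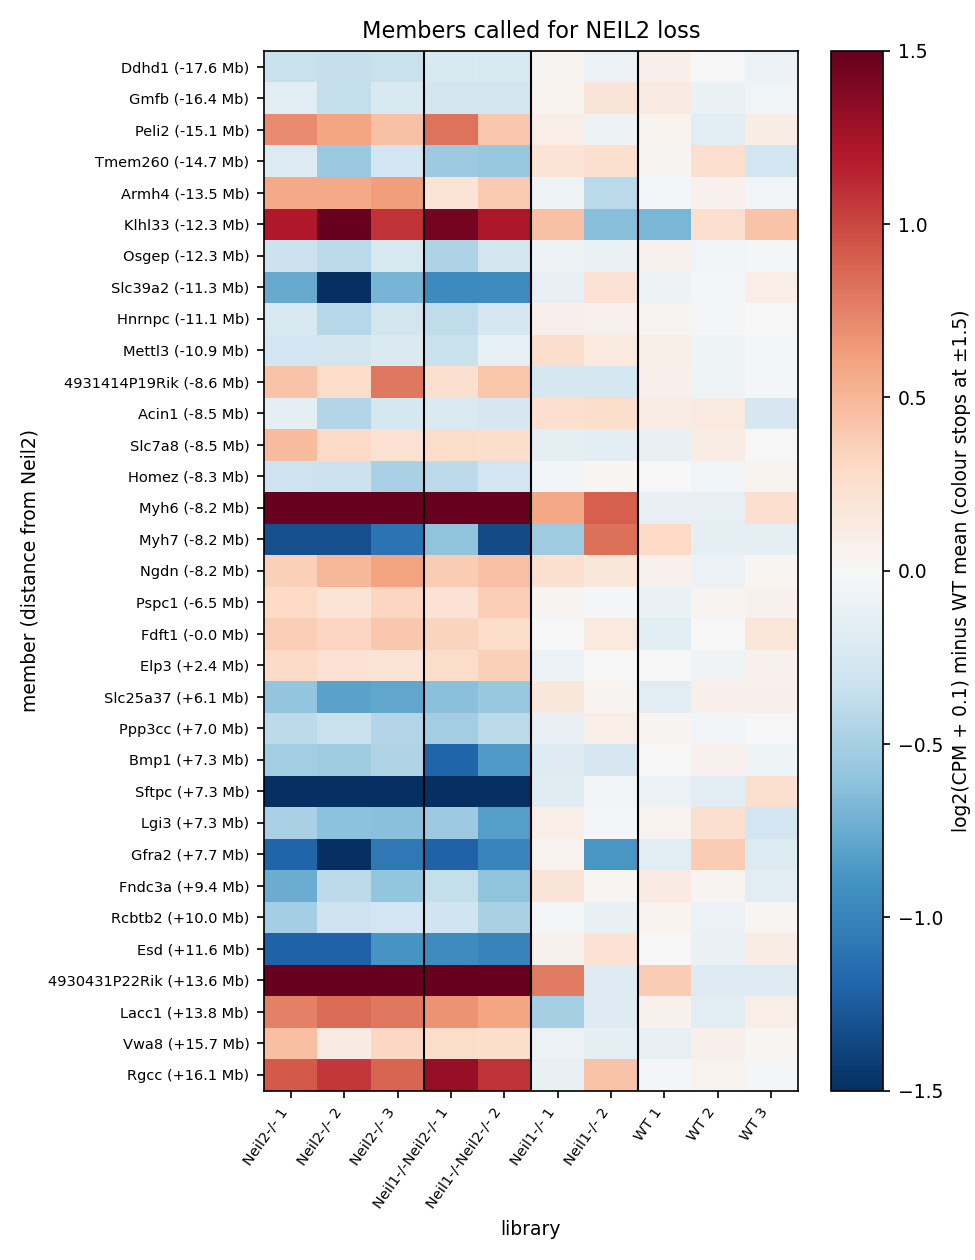
The 33 members called for NEIL2 loss (rows, by distance from Neil2) in each library (columns); colour is log2(CPM + 0.1) minus the mean of the 3 WT libraries, with the scale stopped at 1.5 either way. The left 5 columns, without NEIL2, are of 1 colour within each row, and at 31 of the 33 members they do not overlap the 5 columns with NEIL2 (the exceptions are Tmem260 and Acin1). The rows were chosen for this difference in the same libraries.

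Among the called members with a place in the nervous system, Lgi3 encodes a secreted protein of the leucine-rich glioma-inactivated family. It had 48.1, 44.0 and 43.6 CPM in Neil2-/- and 46.4 and 38.1 CPM in Neil1-/-Neil2-/-, against 72.3 and 66.0 CPM in Neil1-/- and 70.1, 79.6 and 55.3 CPM in WT libraries (log2 fold change for NEIL2 loss -0.64 ± 0.09, adjusted p = 0.00466). Gfra2, the co-receptor for neurturin, had 12.5, 9.34 and 13.7 CPM in Neil2-/- and 12.4 and 14.5 CPM in Neil1-/-Neil2-/-, against 29.8 and 15.7 CPM in Neil1-/- and 25.6, 37.6 and 24.9 CPM in WT libraries. Neil1-/- replicate 2 came close to the libraries without NEIL2, but the groups did not overlap, and Gfra2 was lower for NEIL2 loss by -1.09 ± 0.19 (adjusted p = 0.0139). Slc7a8, which encodes the amino acid transporter LAT2, rose by 0.37 ± 0.06 (adjusted p = 0.00943), with 128, 112 and 108 CPM in Neil2-/- and 111 and 110 CPM in Neil1-/-Neil2-/-, against 83.7 and 82.3 CPM in Neil1-/- and 85.4, 99.0 and 91.9 CPM in WT libraries. Elp3, the catalytic subunit of the Elongator complex that modifies tRNA, rose by 0.28 ± 0.05 (adjusted p = 0.0139). These were the 4 members called among 25 tested on a list of neuronal and synaptic genes (2 higher, 2 lower, median log2 fold change -0.03, against 0.002 over all genes tested).

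Of 18 tested members on a list of mitochondria and metabolism, 1 was higher and 2 were lower (median 0.02). Slc25a37 encodes mitoferrin, which carries iron into mitochondria, and had 8.39, 7.19 and 7.34 CPM in Neil2-/- and 8.15 and 8.52 CPM in Neil1-/-Neil2-/-, against 14.2 and 13.0 CPM in Neil1-/- and 11.3, 13.4 and 13.4 CPM in WT libraries. It was lower by -0.72 ± 0.09 for NEIL2 loss (adjusted p = 0.0026). Esd was the other lower gene, and Fdft1, squalene synthase of the cholesterol pathway, was higher by 0.31 ± 0.07 (adjusted p = 0.0403). Fdft1 is the nearest tested neighbour of Neil2, starting 37.3 kb below it. Its gene model overlaps that of Ctsb (cathepsin B, a lysosomal protease), its estimated counts were not whole in any of the 10 libraries, and its call was lost without any 1 of 8 of the 10 libraries (adjusted p up to 0.0957, without WT replicate 1), so the value is uncertain.

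Outside these lists, Sftpc encodes surfactant protein C of the lung and was low throughout: 0.0932, 0.200 and 0.0489 CPM in Neil2-/- and 0.147 and 0.148 CPM in Neil1-/-Neil2-/-, against 0.810 and 0.904 CPM in Neil1-/- and 0.872, 0.822 and 1.12 CPM in WT libraries. These levels stand for 1 to 4 counts per library without NEIL2 and 17 to 24 with it. The fall of -2.78 ± 0.36 (adjusted p = 0.0026) was without overlap. Sftpc begins just beyond the end of Bmp1 (chr14:70520941-70524081). Slc39a2, which encodes the zinc importer ZIP2, had 3.68, 1.90 and 3.82 CPM in Neil2-/- and 3.19 and 3.20 CPM in Neil1-/-Neil2-/-, against 5.76 and 7.28 CPM in Neil1-/- and 5.96, 6.14 and 6.73 CPM in WT libraries (-1.01 ± 0.17, adjusted p = 0.0137). Lacc1, an enzyme of purine metabolism known from macrophages, had 5.13, 5.44 and 5.28 CPM in Neil2-/- and 4.86 and 4.58 CPM in Neil1-/-Neil2-/-, against 2.10 and 2.61 CPM in Neil1-/- and 3.15, 2.66 and 3.23 CPM in WT libraries (0.88 ± 0.13, adjusted p = 0.00532). Both were without overlap, and Lacc1 shares part of its span with Ccdc122.

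Several called members act on RNA, in both directions. Hnrnpc, a nuclear RNA-binding protein, had 246, 215 and 239 CPM in Neil2-/- and 223 and 244 CPM in Neil1-/-Neil2-/-, against 307 and 304 CPM in Neil1-/- and 298, 285 and 288 CPM in WT libraries. The difference of -0.34 ± 0.05 (adjusted p = 0.00431) was larger than the spread between mice. Mettl3, the catalytic subunit of the N6-methyladenosine writer, differed by -0.33 ± 0.07 (adjusted p = 0.0376), Osgep, which modifies tRNA, by -0.30 ± 0.06 (adjusted p = 0.0329), and Acin1, a splicing-associated protein, by -0.37 ± 0.08 (adjusted p = 0.0432). Mettl3 overlaps Tox4 and Acin1 overlaps 1700123O20Rik, and the estimated counts of Mettl3 were not whole in 10 and those of Acin1 in 9 libraries. Pspc1, a paraspeckle protein, was higher by 0.28 ± 0.06 (adjusted p = 0.027).

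Of the remaining called members, Fndc3a (-0.58 ± 0.08), Ppp3cc, a catalytic subunit of the phosphatase calcineurin (-0.41 ± 0.06), Rcbtb2 (-0.35 ± 0.07), Homez, a homeobox gene (-0.36 ± 0.06), Gmfb, glia maturation factor beta (-0.31 ± 0.06), Ddhd1, a phospholipase (-0.29 ± 0.06), and Tmem260 (-0.53 ± 0.12) were lower for NEIL2 loss. Higher were Klhl33 (1.28 ± 0.23), Peli2, a ubiquitin ligase of innate immune signalling (0.60 ± 0.11), Armh4 (0.56 ± 0.07), 4931414P19Rik (0.55 ± 0.11), Ngdn (0.38 ± 0.08) and Vwa8, a mitochondrial ATPase (0.34 ± 0.07). In all, 8 of the 33 changed by more than 1 on the log2 scale and 15 by less than 0.5. The estimated counts of 8 of the 33 were not whole in 6 or more libraries, as were those of 49 of the 256 tested members, and 24 of the 33 were whole in every library.

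The other lists are given by their counts, beside 1.49% of all genes called for NEIL2 loss. Of 10 tested members on a list of the proteasome, ubiquitin and protein quality control none was called for NEIL2 loss by edgeR, DESeq2 or limma voom, with 2 at an unadjusted p below 0.05. The proteasome subunit Psmb5 differed by 0.11 ± 0.07 (adjusted p = 0.475) and Ctsb by 0.15 ± 0.05 (adjusted p = 0.184). Of 9 tested members on a list of innate immunity and ribonucleases none was called by edgeR or limma voom, with 3 at an unadjusted p below 0.05, and DESeq2 called 1 (Trim35). Of 11 on a list of cell cycle and growth control 1 was called (Rgcc); the tumour suppressors Rb1 (0.34 ± 0.08, adjusted p = 0.0531) and Lats2 (-0.32 ± 0.07, adjusted p = 0.0514) missed the threshold in edgeR and passed it in DESeq2. Of 10 on growth factors, secreted proteases and matrix 1 was called (Bmp1), and of 4 on muscle and heart genes 2 were (Myh6 and Myh7). Median log2 fold changes over these lists lay between -0.09 and 0.13.

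A comparison across both backgrounds used every tested member, called or not. Over the 256 members the log2 fold changes of Neil2-/- against WT and of Neil1-/-Neil2-/- against Neil1-/- mice had a Pearson r of 0.696 and a Spearman rho of 0.419, and 177 members (69.1%) had the same sign. Over the 13718 genes outside the window these values were 0.046, 0.254 and 60.6%, and over the 231 tested genes of the rest of chromosome 14 they were -0.505, 0.167 and 59.7%. At 40 members both comparisons had an unadjusted p below 0.05, and all 40 had the same sign. Of all 13982 genes tested, 444 passed in both comparisons, and 417 of these had the same sign. A shared sign past both cut-offs was thus common over all genes too. The r of 0.696 depended on the filter and on single libraries: it was 0.323 over 355 members with no filter on low counts, 0.544 without Neil1-/- replicate 2 and 0.559 without Neil1-/-Neil2-/- replicate 2. With the 33 called members set aside, r over the other 223 was 0.408 and rho 0.214. The 2 comparisons share no library, but genes are not independent replicates, and all log2 fold changes come from 1 fit and 1 scaling.

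For loss of NEIL1 the matching pair of comparisons also shares no library. Between Neil1-/- against WT and Neil1-/-Neil2-/- against Neil2-/- mice, the 256 members had r = 0.038, rho = 0.167 and the same sign at 60.5%. Genes within 20 Mb of Neil1, of which 301 were tested, had r = 0.739 and rho = 0.553 for loss of NEIL1, and 0.058 and 0.226 for loss of NEIL2. Of those 301 genes 8 were called in Neil1-/- against WT (0.2% of all genes) and 12 in Neil1-/-Neil2-/- against Neil2-/- mice (0.222% of all genes). In Neil2-/- against WT mice edgeR and limma voom called none of them, near the 0.3% of all genes called, with 24 (7.97%) at an unadjusted p below 0.05, against 9.65% of all genes, and DESeq2 called 1 (Nrgn). How these values differ between the regions was not tested.

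**Figure D4:**
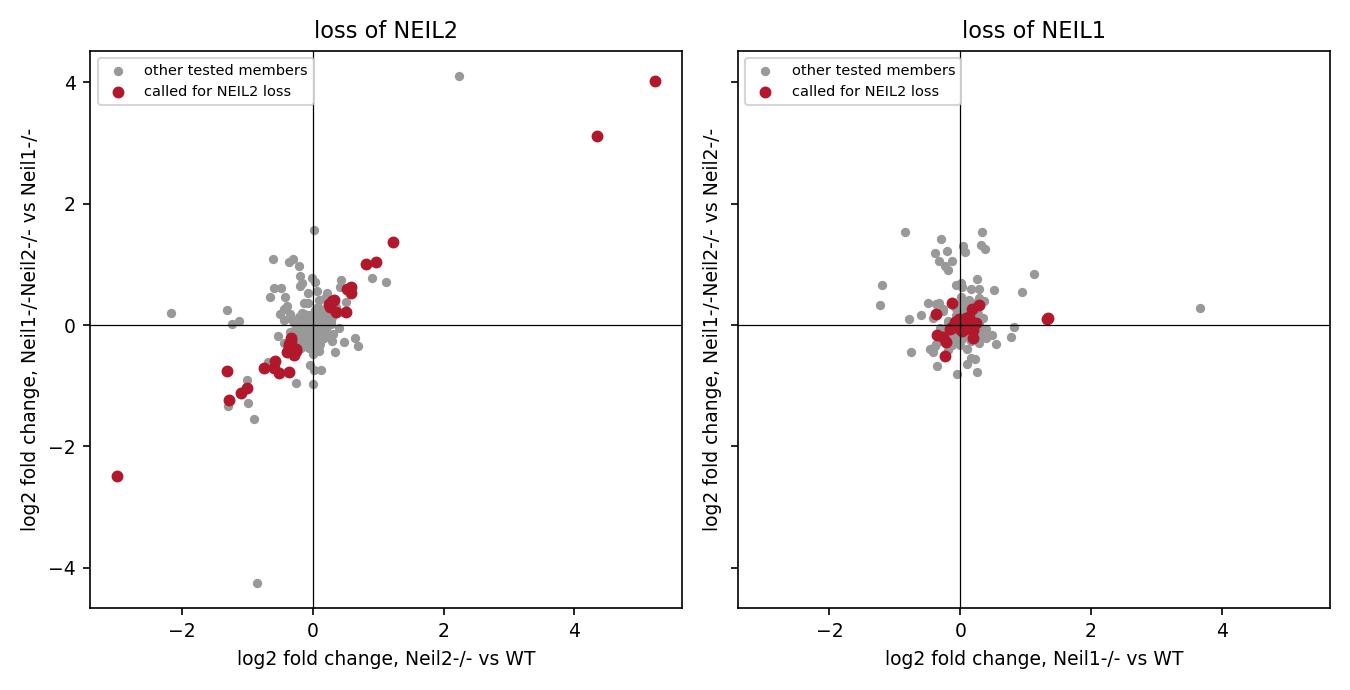
Log2 fold changes of the 256 tested members for loss of NEIL2 (left; Neil2-/- against WT on the horizontal and Neil1-/-Neil2-/- against Neil1-/- on the vertical axis) and loss of NEIL1 (right; Neil1-/- against WT and Neil1-/-Neil2-/- against Neil2-/-), with the 33 called for NEIL2 loss in red. Pearson r is 0.696 on the left, or 0.323 over 355 members with no filter on low counts, and 0.038 on the right.

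Most called members lay more than 5 Mb from Neil2. In steps of 5 Mb upward through the window, NEIL2 loss called 3 of 21, 7 of 28, 8 of 80 and 1 of 28 tested members below Neil2 and 1 of 29, 8 of 33, 3 of 25 and 2 of 12 above it. The highest shares were thus 25.0% at 10 to 15 Mb below and 24.2% at 5 to 10 Mb above Neil2, and within 5 Mb on either side only Fdft1 and Elp3 were called. No member within 5 Mb was called in Neil2-/- against WT or in Neil1-/-Neil2-/- against Neil1-/- mice by edgeR or limma voom, with 8 of 57 at an unadjusted edgeR p below 0.05 in each, against 9.65% and 13.0% of all genes tested, and 0.3% and 0.458% of all genes called, so a count of 0 among 57 is near the background; DESeq2 called 3 (Ephx2, Fdft1 and Trim35) and 1 (Elp3). For NEIL2 loss, 5 of 28 members (17.9%) up to 5 Mb below Neil2 had an unadjusted p below 0.05 in edgeR. Up to 5 Mb above it 10 of 29 (34.5%) did, against 16.1% of all genes. The differences among these shares were not tested. On the rest of chromosome 14, 1 of 231 tested genes was called for NEIL2 loss.

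The 8 tested members nearest to Neil2 were Fdft1, Ctsb, Wdfy2 and Ints6 below it and Mtmr9, Xkr6, Pinx1 and Sox7 above it. Apart from Fdft1 none was called, with 1.49% of all genes called for NEIL2 loss. Ctsb, 0.06 Mb below Neil2, had 734, 696 and 789 CPM in Neil2-/- and 726 and 794 CPM in Neil1-/-Neil2-/-, against 695 and 657 CPM in Neil1-/- and 649, 662 and 717 CPM in WT libraries, so that the groups overlapped. The other 6 had log2 fold changes for NEIL2 loss between -0.07 (Sox7, a transcription factor at under 1 CPM) and 0.20 (Xkr6), with adjusted p from 0.38 to 0.952.

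At the ends of the window, the last tested members were Gpr137c and Txndc16, 17.96 and 18.05 Mb below Neil2, with 0.22 and -0.08 for NEIL2 loss, and Sugt1 and Pcdh8, 16.41 and 16.58 Mb above it, with -0.16 and -0.65. Just outside came Prxl2a and Tspan14, 22.19 and 22.28 Mb below (-0.01 and -0.18), and Pcdh17 and Diaph3, 21.26 and 23.47 Mb above (-0.16 and -0.02). None of these 8 was called by edgeR or limma voom, against 1.49% and 1.5% of all genes, so a count of 0 among 8 is near the background. DESeq2 called Pcdh8, against 4.79% of all genes. In edgeR 4 of the 8 had an unadjusted p below 0.05, against 16.1% of all genes. Pcdh8, a protocadherin, came nearest to the threshold (adjusted p = 0.0927).

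**Figure D5:**
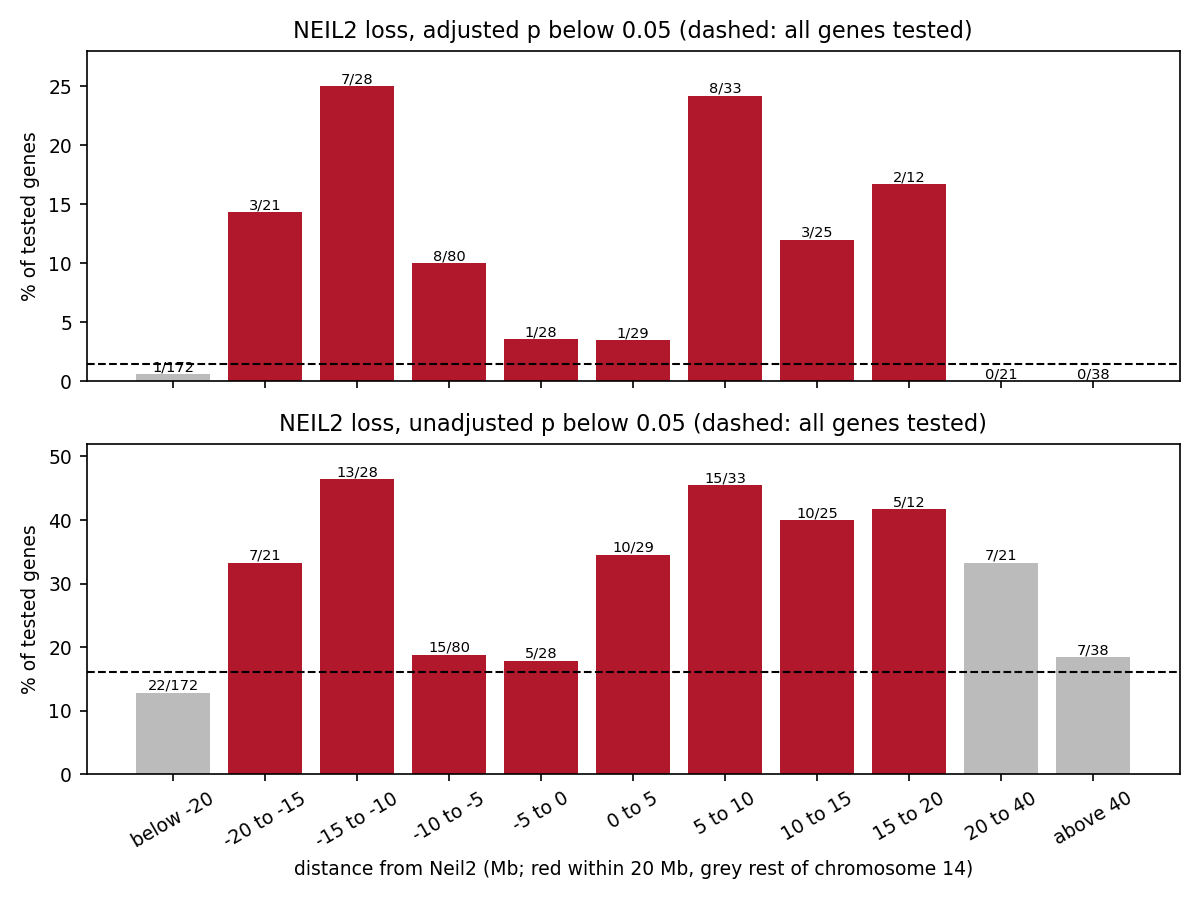
Share of tested genes (vertical axes, %) called for NEIL2 loss (top) or with an unadjusted p below 0.05 (bottom), by distance from Neil2; red bars are steps of 5 Mb within the window, grey bars the rest of chromosome 14, the dashed line all genes tested (1.49% and 16.1%), and the fraction above each bar its count. In the top panel the highest red bars are 25.0% and 24.2%, away from the 2 bars next to Neil2. In the bottom panel the highest are 46.4% and 45.5%, and the bars next to Neil2 are 17.9% below it and 34.5% above it.

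Along the upper side, stretches were drawn with called members as their limits, where the direction of the calls changes. A shared direction within each stretch thus follows from that choice and was not tested. Elp3, called higher (0.28) at 2.35 Mb above Neil2, lies in neither stretch. Of all genes tested, 0.73% were called higher and 0.765% lower for NEIL2 loss. All 9 members called for NEIL2 loss between Slc25a37 (6.06 Mb) and Esd (11.55 Mb) were lower, with Slc25a37, Ppp3cc, Bmp1, Sftpc, Lgi3, Gfra2, Fndc3a and Rcbtb2 before Esd, and all 4 called beyond Esd (4930431P22Rik, Lacc1, Vwa8 and Rgcc) were higher. Of all 37 members tested in the first stretch 23 had a negative and 14 a positive log2 fold change, and of the 30 in the second 15 had each sign. Below Neil2, 9 were called higher and 10 lower.

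The remaining question was whether loss of NEIL1 adds to loss of NEIL2 at these genes. In Neil1-/-Neil2-/- against Neil2-/- mice edgeR called no member, against 0.222% of all genes tested, with 26 at an unadjusted p below 0.05 (10.6% of all genes); limma voom called none either (0.222% of all genes), and DESeq2 called 2, Pnoc (higher) and Bmp1 (lower), against 1.07% of all genes. Pnoc encodes the precursor of the neuropeptide nociceptin. Without Neil1-/-Neil2-/- replicate 2 that group rests on replicate 1 alone, the library that stood apart and had raised markers of other cell types. In that fit the log2 fold changes against Neil2-/- mice were 0.63 for Abhd4, 1.47 for Pnoc, 0.99 for Ndrg2, 1.97 for Nynrin and -0.7 for Bmp1. These members were chosen after their values were seen, and the part of the markers in them was not tested. For the interaction of both losses edgeR again called none (0.093% of all genes), with 18 at an unadjusted p below 0.05 (5.52%); limma voom called none (0.0858% of all genes) and DESeq2 called 1, Entpd4b (0.215% of all genes).

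A few members were called without a matching difference in the other genotypes. Entpd4b and Gm16867 were the 2 called in Neil1-/- against WT mice, and both were also called in Neil1-/-Neil2-/- against Neil1-/- mice. Entpd4b, a copy of a Golgi nucleotidase gene, had 88.0 and 86.5 CPM in Neil1-/-, 49.6, 47.2 and 56.2 CPM in Neil2-/-, 42.4 and 46.6 CPM in Neil1-/-Neil2-/-, and 52.8, 40.4 and 59.6 CPM in WT libraries, so that the Neil1-/- libraries lay above the other 8. Its log2 fold change was 0.78 ± 0.13 in Neil1-/- against WT mice (adjusted p = 0.0454, lost without most single libraries, as with 0.106 without WT replicate 1). It was -0.97 in Neil1-/-Neil2-/- against Neil1-/- mice (adjusted p = 0.02). For the interaction its adjusted p was 0.168. Gm16867 had 7.38 and 3.97 CPM in Neil1-/- libraries and at most 0.795 CPM in the other 8. Both lie beside further copies of the same gene, and their estimated counts were not whole in any library, so the split of reads among copies is uncertain. Gm43305, a long non-coding RNA with the same uncertainty, had 4.24, 1.70 and 3.28 CPM in Neil2-/- against 10.3, 22.8 and 8.65 CPM in WT libraries (-2.17 ± 0.37, adjusted p = 0.0367), but 8.39 and 9.55 CPM in Neil1-/-Neil2-/- against 6.77 and 8.84 CPM in Neil1-/- libraries, where the log2 fold change was 0.20 ± 0.43.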

How the data were processed

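RNA from laser-dissected CA1 pyramidal layer was sequenced as 100-bp paired reads in 12 libraries, of which 10 were grouped by label. The authors deposited estimated counts per gene, made by the sequencing company BGI with Bowtie2 and RSEM and not normalized; 87.8% of the values are whole. The submitters' processing notes also name HISAT, StringTie, GATK and the builds GRCm38 and mm10; versions, and whether counting used strand, are not given in the sources used here. Overlapping genes can share reads. P-values measure the spread between these libraries, of mice of 1 line per genotype.

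Counts were rounded and tested with edgeR 4.0.16 in R 4.3.3 (low counts removed by filterByExpr, minimum 10; TMM scaling, glmQLFit with 1 mean per genotype over the 10 libraries, glmQLFTest). NEIL2 loss came from an additive fit of both losses. P-values are 2-sided and Benjamini-Hochberg adjusted over 13982 genes, threshold 0.05; the SE of a log2 fold change was derived from its test statistic. CPM use TMM factors of the tested genes. Positions are RefSeq starts on GRCm38, found for 18425 of 18558 genes. Intervals of count ratios are exact and cover counting error only, with a floor of 3 counts over a group at 0. Genes named were members called in any of the 7 comparisons, the 4 tested members nearest Neil2 on each side, 2 genes inside and outside each window end, and up to 3 members of each function list; others were chosen after their values were seen. Of the 36 called members the rule takes the 30 with the smallest p; Osgep, Fdft1, Acin1, Tmem260, Mettl3 and Vwa8 are the other 6. Alternatives were no filter, median-ratio scaling, DESeq2 1.42.0, limma 3.58.1 voom, robust fitting, a block for replicate number, a fit to the compared groups alone, a threshold of 0.1, each library left out, members with values not whole in 6 or more libraries left out, windows of 10 and 40 Mb and, for NEIL2 loss, the mean of 2 contrasts. The fit was checked on simulated counts. Members, lists and tests were chosen with earlier results of these data known. Figures used matplotlib 3.10.9 in Python 3.11.15.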

Additional observations from a re-analysis of the deposited data

Results flagged for a closer look

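The 2 libraries that entered no comparison, because title and label give different genotypes, held a signal at 3 members that were nearly silent in WT mice. The library titled N1_2_3 had 0.938 CPM of Myh6 and 0.79 CPM of 4930431P22Rik, above the highest WT values of 0.0935 and 0.0485 CPM. The library titled N1_3 had 5.84 CPM of Gm16867, whose highest WT value was 0.795 CPM. Its 0.196 CPM of Myh6 was above the WT values but within those of the Neil1-/- libraries (0.143 and 0.201 CPM). Members were not tested for a single outlying library within a group, since each group holds 2 or 3 libraries.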

How the results depend on the processing

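No called value of a member changed sign under any alternative: of the refitted values of called members, 771 stayed past the threshold and 235 missed it in the same direction. Median-ratio scaling, limma voom and robust fitting left every count of called members within 1.5 times its value above, and median-ratio scaling shifted the median of all genes by under 0.01 on the log2 scale. DESeq2 called more members: 4 in Neil1-/- against WT, 24 in Neil2-/- against WT, 14 in Neil1-/-Neil2-/- against WT, 20 in Neil1-/-Neil2-/- against Neil1-/-, 2 in Neil1-/-Neil2-/- against Neil2-/- mice and 1 for the interaction. Its shares of all genes were higher too, at 0.615%, 1.13%, 1.33% and 2.07% in the first 4 of these, against 0.2%, 0.3%, 0.322% and 0.458% with edgeR. Without the filter on low counts these last 3 comparisons gave 12, 3 and 1. A threshold of 0.1 gave 16, 10 and 14 in Neil2-/- against WT, Neil1-/-Neil2-/- against WT and Neil1-/-Neil2-/- against Neil1-/- mice, and 1 in Neil1-/-Neil2-/- against Neil2-/- mice. The shares of all genes called without the filter or at 0.1 are not given here. The higher counts under these settings are therefore not a result about the members. With only the groups compared, which is not possible for NEIL2 loss and the interaction, Neil1-/- against WT gave 1 and Neil1-/-Neil2-/- against Neil1-/- gave 2. Leaving out members with values not whole in 6 or more libraries gave 0 and 3 in the same 2 comparisons. A window of 10 Mb gave 6, 2 and 18 members in Neil2-/- against WT, Neil1-/-Neil2-/- against WT and for NEIL2 loss, by having fewer members. A window of 40 Mb gave 10, 3 and 3 in Neil1-/-Neil2-/- against Neil1-/-, Neil1-/-Neil2-/- against Neil2-/- and the interaction. Leaving out 1 library at a time gave 0 to 2 in Neil1-/- against WT, 2 to 11 in Neil2-/- against WT, 3 to 6 in Neil1-/-Neil2-/- against WT, 1 to 7 in Neil1-/-Neil2-/- against Neil1-/-, 0 to 5 in Neil1-/-Neil2-/- against Neil2-/- and 18 to 32 for NEIL2 loss; where an arm then holds 1 library, it is assumed to vary like the others. Chosen after seeing the data, leaving out Neil1-/-Neil2-/- replicate 1 and Neil1-/- replicate 2 gave 1 in Neil1-/- against WT, 0 in Neil1-/-Neil2-/- against Neil1-/- and 17 for NEIL2 loss, and without Neil1-/-Neil2-/- replicate 1 the members whose libraries did not overlap went to 51, against 43, while the count over all genes tested went to 806, against 515. Whether the replicate numbers pair the mice could not be settled. Correlations of deviations between same-numbered libraries ran from -0.165 to 0.186, but in a group of 2 the deviations mirror each other. With the replicate block, Neil2-/- against WT gave 2 members. The correlation of the 2 comparisons of NEIL2 loss over members, 0.696, was 0.323 with no filter on low counts and 0.544 to 0.723 without single libraries. Where not stated otherwise the cause was not tested. The depth limits genes such as Sftpc, Myh6 and 4930431P22Rik, where 1 count is worth about 0.05 CPM.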

Other observations

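In the library titled N1_2_3 and labelled Neil1-/-, Esd was at 33.8 CPM, Bmp1 at 36.2 CPM, Rgcc at 11.8 CPM and Sftpc at 0.247 CPM, and Neil2 had no count. In the library titled N1_3 and labelled Neil1/2-/-, Esd was at 68.1 CPM, Bmp1 at 69.2 CPM, Rgcc at 4.17 CPM and Sftpc at 0.491 CPM, and Neil2 had 3 counts. Neither library was used in a mean or a test. Ccnb1ip1, a member 12.39 Mb below Neil2, was not called (adjusted p = 0.093 for NEIL2 loss) but had large log2 fold changes in both comparisons of NEIL2 loss, 2.24 in Neil2-/- against WT and 4.10 in Neil1-/-Neil2-/- against Neil1-/- mice, and Piwil2, 7.19 Mb above Neil2, likewise had -1.30 and -1.34 (adjusted p = 0.051 for NEIL2 loss). Both were chosen after their values were seen.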
